A study of Rattus norvegicus with 4 samples.

Results

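The genes described here are 256 of 20174 genes on a rat oligonucleotide array whose signal was low in fibroblasts given IPTG alone and higher again in fibroblasts given IPTG together with zinc. They were chosen from the authors' deposited table of normalized intensities, which are linear values scaled to a median of 25 on each array. A gene entered if it had a value on all 4 arrays, reached 50 or more without additions, was at least 2-fold lower with IPTG alone than without additions, and was at least 1.5-fold higher with IPTG and zinc than with IPTG alone. Of the 20174 genes, 12781 were listed on all 4 arrays and 5462 of these reached the level of 50. Among the 5462, 483 (8.84%) were at least 2-fold lower with IPTG alone and 512 (9.37%) at least 1.5-fold higher with zinc added to IPTG; the 256 selected genes are those that met both limits.

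The cells were Rat-1·RasValA1, a stable line of rat embryonic fibroblasts in which an IPTG-inducible promoter governs HrasG12V. All cultures were moved 24 h before RNA collection to serum-free DMEM with bovine serum albumin, without the G418 and hygromycin B used for routine culture. The 4 conditions, each for 24 h, were 5 mM IPTG with 3 µM ZnCl2, 5 mM IPTG alone, 3 µM ZnCl2 alone, and no addition. Each condition was measured on 1 single-colour array, so no difference here has a replicate check and no p-value is given. All cultures carried the inducible allele, so an action of IPTG itself and induction of HrasG12V cannot be told apart. Signals are per culture, so fewer expressing cells and less RNA per cell cannot be told apart either.

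Hras is a small GTPase that passes signals from growth factor receptors to the RAF, MEK and ERK kinases, and the G12V substitution keeps it in its active, GTP-bound state. In fibroblasts, activated Ras is known to change cell shape, to allow growth without attachment and to lower the expression of many genes of the extracellular matrix and the contractile cytoskeleton. IPTG relieves repression by the bacterial lac repressor. Zinc is a cofactor of many enzymes and transcription factors. Cells buffer it with metallothioneins and move it with membrane transporters.

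The genes are known here by Ensembl identifier, and none of the 256 could be paired with a gene symbol, since the RefSeq table used for names holds no Ensembl identifiers. Their functions, genome positions and promoter sequences are therefore not given, neither induction of Hras nor the fibroblast identity of the cultures was checked against its genes, and at most 2 identifiers are printed for each group of genes described. What follows describes their levels, the degree of their return with zinc, the array with zinc alone, and their places on the array.

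The array with IPTG alone decided the selection on both sides. It is the lower array in the comparison with no addition and again in the comparison with IPTG and zinc. An array with IPTG alone that read low for these genes, or a culture with IPTG alone that stood apart, would give the same pattern with no effect of zinc. With 1 array per condition, these cannot be told apart from a return of expression with zinc.

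The selected genes covered a wide range of signal. With IPTG and zinc, their normalized intensity ran from 4.03 to 5351 with a median of 106.2. With IPTG alone it ran from 2.10 to 2346, with a median of 41.5. With zinc alone the median was 106, the lowest value 26.2 and the highest 3874. Without additions the range was 50.1 to 4859 and the median 129. The IPTG array was the lowest of the 4 for all 256 genes, against 16.5% of the 5462 genes at 50 or more. The rule fixed this for 2 of the other arrays, and zinc alone was within 1.5-fold of no addition for 93.5% of those 5462, so the order follows almost wholly from the choice.

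**Figure D1:**
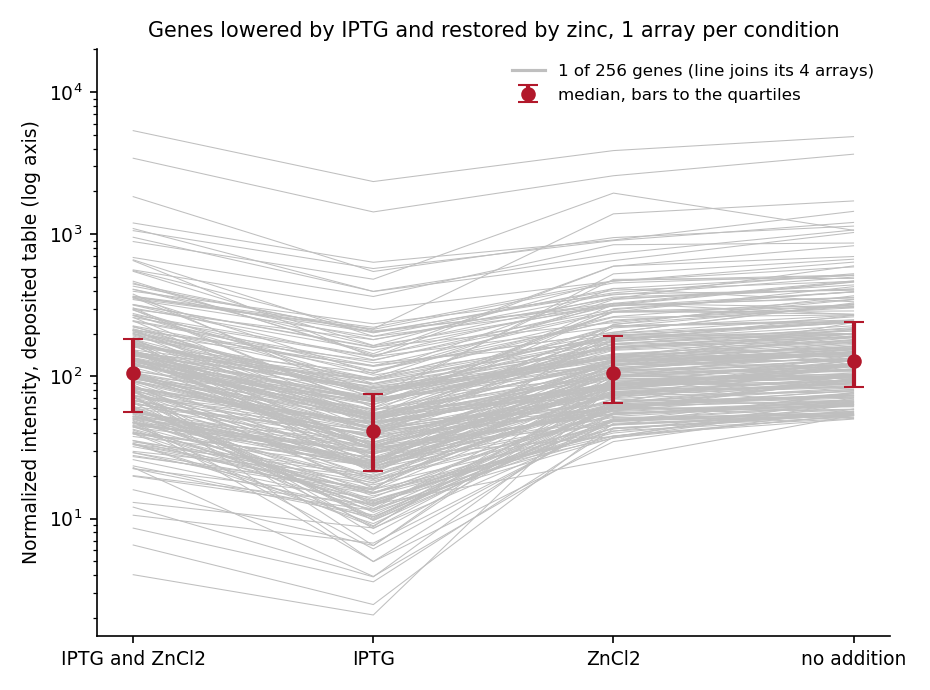
Normalized intensity from the deposited table (log axis) of the 256 selected genes on the arrays with IPTG and ZnCl2, IPTG, ZnCl2 and no addition. Each grey line joins the 4 values of a gene, and the red points are medians with bars to the quartiles. The median is 41.5 on the IPTG array and 106 to 129 on the others.

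Very bright genes were few among them. Without additions, 91 of the 256 (35.5%) lay between 50 and 100, 109 (42.6%) between 100 and 250, 36 between 250 and 500, 11 between 500 and 1000, and 9 (3.52%) at 1000 or more. Of all 5462 genes at 50 or more, 590 (10.8%) reached 1000. No spot of a selected gene was marked as poor at any of the 3 scanner gains. The lowest value of a selected gene on the IPTG array was 2.25 times the lowest value that the table lists on that array.

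The difference between IPTG alone and no addition had a median of -1.65 on the log2 scale, with -5.75 for the gene furthest down. At least 3-fold lower were 133 genes, at least 4-fold 96, at least 8-fold 25 and at least 16-fold 6. The difference between IPTG with zinc and IPTG alone had a median of 1.26 and ranged from 0.59 to 3.88. At least 2-fold higher with zinc were 167 genes, at least 3-fold 81, at least 4-fold 42 and at least 8-fold 7. These differences chose the genes and are given as a description. For comparison, 7.8% of the 12781 genes were 2-fold lower or more with IPTG alone than without additions, and 9.5% passed the 1.5-fold limit for the return. Over all 12781 genes the median difference was 0.34 for IPTG alone and -0.24 for zinc with IPTG, so the selected genes lay against the shift of the table in both.

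**Figure D2:**
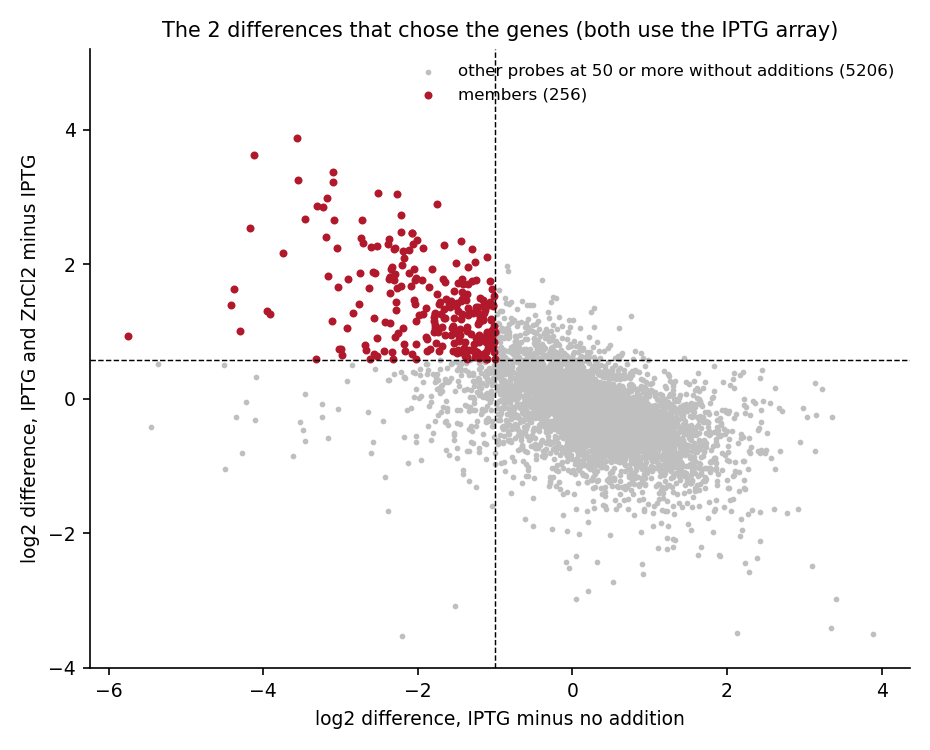
Log2 difference between IPTG and ZnCl2 and IPTG alone, plotted against the log2 difference between IPTG alone and no addition, for the 5462 genes at 50 or more without additions. The 256 selected genes are red, the others grey, and dashed lines mark the 2-fold and 1.5-fold limits. Both axes contain the IPTG array with opposite sign, so a low reading there moves a point up and to the left.

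The limits cut through a continuous distribution. The 3 selected genes nearest the level limit had 50.1, 50.6 and 50.9 without additions, and the 3 nearest genes left out had 49.9, 49.1 and 48.9. At the limit of 2-fold, the nearest selected genes were 2.005, 2.010 and 2.018 times higher without additions than with IPTG alone, and the nearest left out were 1.996, 1.992 and 1.991 times higher. At the limit of 1.5-fold, the nearest selected genes were 1.504, 1.505 and 1.506 times higher with IPTG and zinc than with IPTG alone, and the nearest left out were 1.497, 1.492 and 1.487 times higher. Genes on either side of a limit thus differed by less than the error within an array. Over 24 repeat spots of a positive control the SD of the log2 signal was 0.07 to 0.16, and for a second control 0.16 to 0.22.

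The gene with the largest pattern by the smaller of its 2 log2 differences was ENSRNOG00000023065. Its normalized intensity was 79.4 with IPTG and zinc, 6.45 with IPTG alone, 98.6 with zinc alone and 112 without additions. In the table it was thus 17.4-fold lower with IPTG alone than without additions and 12.3-fold higher with IPTG and zinc than with IPTG alone, while the 3 arrays other than IPTG alone lay close together. These folds rest on a dim value and on the background taken off. From the scanner signals, with the average blank spot taken off as background, the log2 differences were -2.25 and 1.77, and with the local background around each spot -1.34 and 0.94. Both of these ways of processing add 50 before the log, which by itself shrinks the differences of dim genes.

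ENSRNOG00000010126 came next, at 73.2 with IPTG and zinc, 4.97 with IPTG alone, 34.8 with zinc alone and 58.9 without additions. In the table it was 11.8-fold lower with IPTG alone than without additions and 14.7-fold higher with IPTG and zinc than with IPTG alone. Unlike the first gene, it was higher in the table with IPTG and zinc than on any other array, 2.11-fold above zinc alone. Its log2 differences were -1.58 and 1.76 with the blank-spot background and -1.07 and 0.86 with the local background. Its spot lies in block 1 of the 24 blocks of spots on the array. There the median log2 difference between IPTG with zinc and zinc alone was 0.79 over the genes at 50 or more. For this gene it was 1.07 in the table. It was 0.70 after each block was centred on its own median, and 0.33 with the local background. Both genes stayed past the 2-fold and 1.5-fold limits under all 7 other ways of processing that were tried, but with much smaller differences under the scanner backgrounds.

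Across the 20 genes ranked this way, the level with IPTG alone was 4.82-fold to 18.0-fold below that without additions, and the level with IPTG and zinc was 4.84-fold to 14.7-fold above that with IPTG alone, in the deposited table. On the log2 scale, IPTG alone against no addition was -2.52 to -1.31 for these genes with the blank-spot background and -2.12 to -0.78 with the local background. IPTG with zinc against IPTG alone was 0.78 to 2.19 with the blank-spot background and -0.088 to 1.93 with the local background, where 2 of the 20 were below 0. Their median normalized intensity was 79.9 with IPTG and zinc, 9.87 with IPTG alone, 82.3 with zinc alone and 96.8 without additions. On the array with IPTG alone all 20 were at 60.3 or less, and their median lay below the median of 25 of the whole array. Of the 20, 17 met the fold limits under all 7 other ways of processing, against 79 of all 256. The 20 were ranked by the same differences on the same arrays, so a higher share follows from the ranking.

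In the deposited table, the 10 brightest selected genes had smaller median differences than the 256 as a whole. ENSRNOG00000005526 had a normalized intensity of 5351 with IPTG and zinc, 2346 with IPTG alone, 3874 with zinc alone and 4859 without additions. It was 2.07-fold lower with IPTG alone than without additions, near the limit, and 2.28-fold higher with IPTG and zinc than with IPTG alone. After each block of spots was centred on its own median, its difference between IPTG alone and no addition was -0.95 on the log2 scale, just short of 2-fold. ENSRNOG00000032840 had 3423 with IPTG and zinc, 1434 with IPTG alone, 2578 with zinc alone and 3655 without additions. It met the limits under all 7 other ways of processing. Among the 10 brightest genes, the level with IPTG alone was a median of 2.33-fold below that without additions, and at most 7.94-fold, in the table. Over all 256 the median was 3.15-fold. With the local background, their log2 difference between IPTG alone and no addition ran from -2.84 to -0.51. For the 20 genes ranked by score it ran from -2.12 to -0.78, so the brightest genes did not have the smaller differences throughout there. The 20 were ranked by the size of their differences in the table, so larger ones there follow from the ranking.

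The return with zinc was partial for most of the selected genes. The log2 difference between IPTG with zinc and IPTG alone, as a percentage of the log2 difference between no addition and IPTG alone, had a median of 76.9% with quartiles of 56.7% and 98.5%. It was under 50% for 48 genes, between 50% and 100% for 147, and 100% or more for 61. Set directly against the array without additions, IPTG with zinc was within 1.5-fold for 162 genes (63.3%), at least 1.5-fold lower for 84 (32.8%) and at least 1.5-fold higher for 10 (3.91%). Over all 12781 genes 65.5% were within 1.5-fold, 13.8% at least 1.5-fold lower and 20.7% at least 1.5-fold higher. Over the 5462 at 50 or more these shares were 67.5%, 15.2% and 17.3%. The share of selected genes within 1.5-fold was thus near that of all genes. The rule asked for a difference of 1.5-fold, so small returns were left out by construction. It also asked for 2-fold against the array without additions and favoured high values there. A return under 100% was thus favoured by the choice as well.

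The genes furthest down with IPTG alone had the smallest median return, although the order was not even across the range. For the 123 genes that were 2-fold to 3-fold lower, the median return was 83.6%, and 41 of them reached or passed the level without additions. For the 37 genes between 3-fold and 4-fold, it was 71.7%, with 6 at or past that level. For the 71 genes between 4-fold and 8-fold, it was 73.1%, with 11 at or past that level. For the 25 genes at least 8-fold lower, the median return was 61.0%, and 3 reached that level. Their median normalized intensity was 56.8 with IPTG and zinc, 8.76 with IPTG alone, 86.8 with zinc alone and 100.3 without additions. The array with IPTG alone enters both sides of this ratio, so these shares are a description of the selected genes and no test.

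The array with zinc alone was the only one that the rule did not use, apart from asking for a value there. In cells without IPTG, it read near the array without additions. The median log2 difference between zinc alone and no addition was -0.29 over the 256 genes, against -0.24 over the 5462 genes at 50 or more and -0.20 over all 12781. Within 1.5-fold of no addition were 218 of the 256 (85.2%). At least 1.5-fold lower with zinc alone were 36 (14.1%), beside a background of 8.68% of all 12781 genes and 6.17% of those at 50 or more. At least 1.5-fold higher were 2 genes (0.781%), beside 1.38% and 0.366%. The rule used the array without additions and favoured high values there, so the excess of lower genes is no independent result.

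Of these 36 genes, most lay in one region of the array. In blocks 1 and 2 of the 24 blocks of spots were 33 of the 36 (91.7%), where 33 of 56 selected genes (58.9%) and 246 of 498 genes at 50 or more (49.4%) were at least 1.5-fold lower with zinc alone. In the other 22 blocks, 3 of 200 selected genes (1.5%) and 91 of 4964 genes at 50 or more (1.83%) were so. The share of selected genes that were lower with zinc alone was thus close to that of their neighbours in both regions.

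The lowest with zinc alone were ENSRNOG00000030319 and ENSRNOG00000006858, both in block 1. The first had a normalized intensity of 20.04 with IPTG and zinc, 12.6 with IPTG alone, 26.2 with zinc alone and 53.2 without additions. It was 2.03-fold lower with zinc alone than without additions, but after each block was centred on its median its log2 difference between IPTG with zinc and IPTG alone was 0.10, under the limit of the rule. The second had 147 with IPTG and zinc, 83.0 with IPTG alone, 120 with zinc alone and 240 without additions. After centring, its log2 difference between IPTG with zinc and IPTG alone was 0.26 and it too left the selection.

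Only 2 of the selected genes were at least 1.5-fold higher with zinc alone than without additions. ENSRNOG00000028841 had 888 with IPTG and zinc, 482 with IPTG alone, 1946 with zinc alone and 1066 without additions. It was 1.83-fold higher with zinc alone than without additions and 1.84-fold higher with IPTG and zinc than with IPTG alone, so the 2 differences by zinc, with and without IPTG, were nearly equal in the table. Its spot lies in block 12, and its log2 difference between zinc alone and no addition was 0.81 after centring, 1.08 with the blank-spot background and 1.67 with the local background. Its difference between IPTG alone and no addition was -0.84 with the local background. It was also -0.84 with each block centred in 8 stretches of spots, and this gene left the selection in both. ENSRNOG00000013379 had 123 with IPTG and zinc, 54.1 with IPTG alone, 197 with zinc alone and 120 without additions. It lies in block 24, where the median of the genes at 50 or more was 0.13 higher on the log2 scale with zinc alone. Its own difference between zinc alone and no addition was 0.44 after centring, 0.84 with the blank-spot background and 1.43 with the local background. With each block centred in 8 stretches of spots, it was 0.019. With the local background its difference between IPTG alone and no addition was -0.16, and this gene left the selection.

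In the pair of arrays with zinc, the selected genes differed much less by IPTG than in the pair without zinc. The median log2 difference between IPTG with zinc and zinc alone was -0.042, against 0.27 over the 5462 genes at 50 or more, a gap of -0.31. In the pair without zinc the gap between the selected genes and those 5462 was -1.88. At least 2-fold lower with IPTG in the pair with zinc were 32 of the 256 (12.5%), beside a background of 4.69% of all 12781 genes and 5.03% of those at 50 or more. At least 1.5-fold lower were 57 (22.3%), beside 9.77% and 10.2%. At least 1.5-fold higher were 33 (12.9%), beside 31% and 27.9%. Within 1.5-fold were 166 genes (64.8%), near the 59.2% of all genes and 61.9% of those at 50 or more. The rule asked for 2-fold in the pair without zinc, so the gap of -1.88 follows from the choice. The array with IPTG and zinc was also used by the rule, which favours high values there. The contrast between the 2 pairs and these counts thus carry no test.

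The 227 genes that met the level limit and were at least 2-fold lower with IPTG alone, but were under the limit of 1.5-fold for the return, are the nearest comparison. Their median log2 difference between IPTG with zinc and zinc alone was -1.27, and 142 of them (62.6%) were at least 2-fold lower. Their median difference between IPTG alone and no addition was -1.45, against -1.65 for the selected genes, and their median difference between zinc alone and no addition was -0.29, the same as for the selected genes. The array with IPTG and zinc split the 2 sets by the rule, so the gap between them in the pair with zinc follows from the choice and was not tested.

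**Figure D3:**
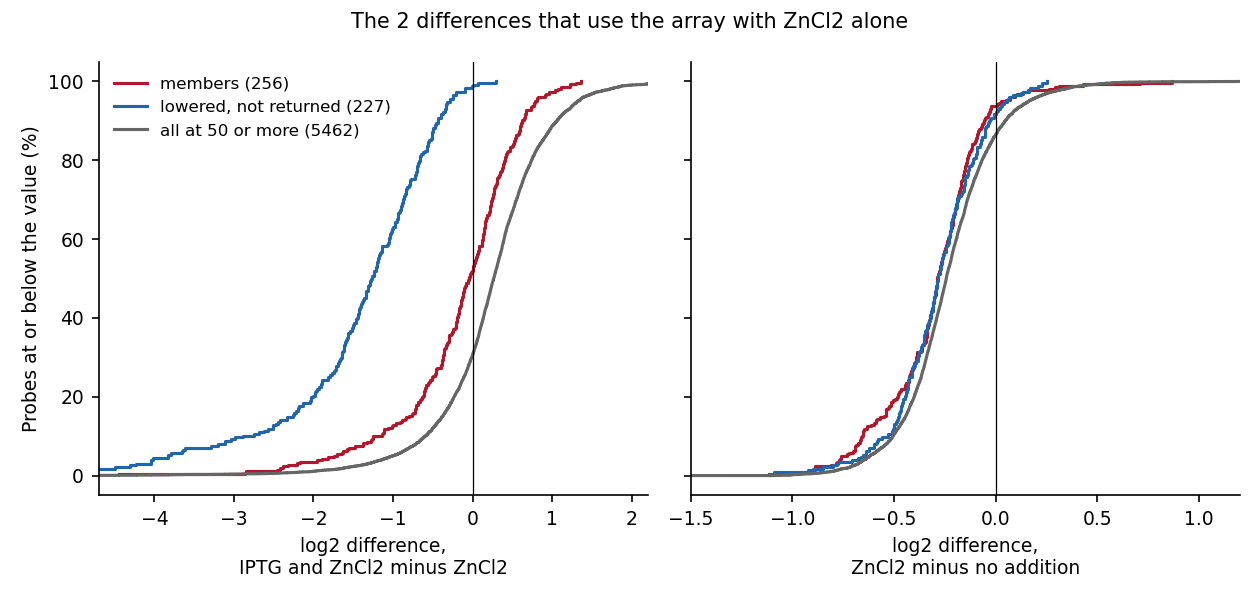
Cumulative share of genes (percent) against their log2 difference, for IPTG and ZnCl2 minus ZnCl2 on the left and ZnCl2 minus no addition on the right. The 256 selected genes are red, the 227 lowered genes without return blue, and all 5462 genes at 50 or more grey. The curves lie close together on the right, with medians of -0.29, -0.29 and -0.24, and apart on the left, with medians of -0.042, -1.27 and 0.27.

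The selected genes spread widely in this pair. The lowest was ENSRNOG00000017084, at 4.03 with IPTG and zinc, 2.10 with IPTG alone, 88.0 with zinc alone and 113 without additions. The ratio between no addition and IPTG alone was 54.0 in the table and that between zinc alone and IPTG with zinc was 21.8, but both divide by values close to the floor of the table. On the log2 scale, IPTG alone against no addition was -2.46 with the blank-spot background and -1.85 with the local background, and IPTG with zinc against zinc alone was -2.19 and -1.89. This gene entered through a 1.92-fold difference between 4.03 and 2.10, which on the log2 scale was 0.13 with the blank-spot background and -0.023 with the local background, under the limit in both. ENSRNOG00000021812 had 32.0 with IPTG and zinc, 15.8 with IPTG alone, 233 with zinc alone and 311 without additions. Its log2 difference between IPTG with zinc and IPTG alone was 0.55 with the blank-spot background and 0.25 with the local background, also under the limit. Both genes were thus low on both IPTG arrays and high on both arrays without IPTG.

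At the other end, ENSRNOG00000015588 had 210 with IPTG and zinc, 51.4 with IPTG alone, 81.7 with zinc alone and 124 without additions. In the table it was 2.57-fold higher with IPTG and zinc than with zinc alone, and 2.41-fold lower with IPTG alone than without additions. With the local background the first of these turned, to -0.093 on the log2 scale. Its spot lies in block 2, where the median of this difference over the genes at 50 or more was 0.56, and its own was 0.96 after centring. ENSRNOG00000000901 had 154 with IPTG and zinc, 20.8 with IPTG alone, 62.9 with zinc alone and 70.3 without additions. In the table it was 2.45-fold higher with IPTG and zinc than with zinc alone. With the local background that log2 difference was 0.45, and the gene left the selection, at -0.51 between IPTG alone and no addition. In the table both had their highest value with IPTG and zinc, as did 59 of the 256 selected genes. The highest value was without additions for 184 and with zinc alone for 13. The rule favoured high values without additions and with IPTG and zinc, so this split follows in part from the choice. The same split over all genes is not given, so it cannot be called particular to the selected genes. Of the 5462 genes at 50 or more, 86.5% were lower with zinc alone than without additions.

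The selected genes were not spread evenly over the array. Blocks 1 and 2 held 56 of the 256 (21.9%) but 9.12% of the genes at 50 or more. In these blocks 11.2% of the genes at 50 or more were selected, against 4.03% in blocks 3 to 24. Blocks 1 to 8 held 124 selected genes, blocks 9 to 16 held 80, and blocks 17 to 24 held 52. Their counts per block ran from 2 in block 22 to 29 in block 2.

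The differences over all genes at 50 or more moved along the blocks too. The median log2 difference between IPTG alone and no addition was -0.23 in block 1 and 0.63 in block 24. The median difference between IPTG with zinc and IPTG alone ran the other way, at 0.33 in block 1 and -0.56 in block 24. Genes in the first blocks were therefore nearer to both limits of the rule than those in the last. For zinc alone against no addition these medians were -0.66 and 0.13, and for IPTG with zinc against zinc alone 0.79 and 0.018. No label or file header says how blocks were filled, and what part position had in the selection of single genes was not tested.

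**Figure D4:**
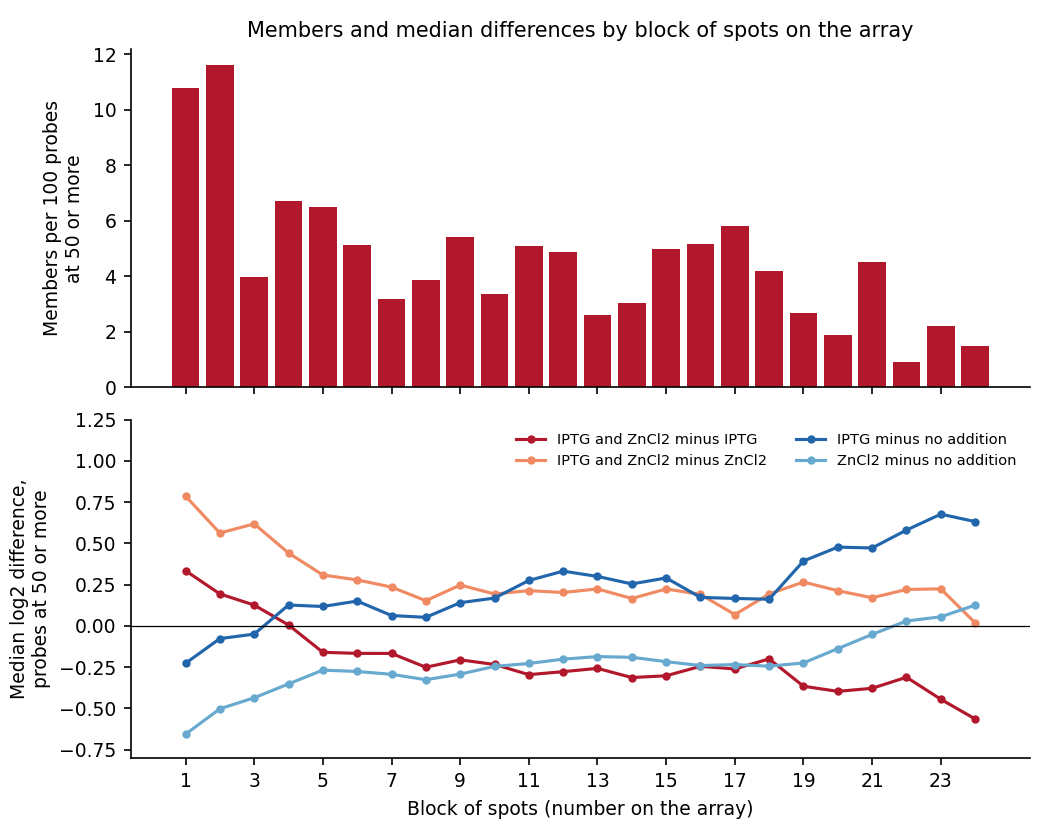
Upper panel, selected genes per 100 genes at 50 or more without additions in each of the 24 blocks of spots. Lower panel, median log2 differences over all genes at 50 or more in each block, for the 4 comparisons. The share of selected genes is 10.8 and 11.6 in blocks 1 and 2 and 1.48 in block 24, where the 2 differences that chose the genes have the opposite sign to block 1.

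Most of the selected genes met the limits outside these blocks or after centring. For the 200 genes in blocks 3 to 24, the median log2 difference was -1.64 between IPTG alone and no addition and 1.26 between IPTG with zinc and IPTG alone. When each array was centred on the median of each of the 24 blocks, the medians over the 256 genes were -1.57 and 1.19, and 205 of the 256 (80.1%) still met the limits. A finer centring, over 8 stretches of spots in each block, kept 185 (72.3%). With block centring the count of genes at least 1.5-fold apart by zinc without IPTG went to 3, against 38 in the table as deposited.

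The background correction also moved the selection. When the mean of the blank spots was subtracted, 50 was added and the arrays were quantile normalized, 243 genes met the fold limits, and 195 of them were among the 256. With the local background around each spot, corrected by normexp, 281 genes met the limits, but only 102 of them were among the 256 (39.8%). The local background of the selected genes differed between arrays. Its median scanner reading was 159 with IPTG and zinc, 92.5 with IPTG alone, 149 with zinc alone and 152 without additions. Over all 5462 genes at 50 or more it was 204, 203, 171 and 169, in the same order. Both in excess over blank spots, its median share of the selected genes' spot signal was 47.8%, 50.8%, 38.1% and 33.8%. Over the 5462 these shares were 36.9%, 40.6%, 31.7% and 29.7%. The rule chose low signals with IPTG alone, which by itself raises the share there. The part of the local background in the selection was not tested.

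Other scalings of the table widened the selection. When the 4 arrays were given one median over the 12781 genes, 386 genes met the limits, and quantile normalization of the table gave 410. All 256 selected genes were among both. Under all 7 other ways of processing together, 79 of the 256 met the limits, 8 of them in blocks 1 and 2.

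**Figure D5:**
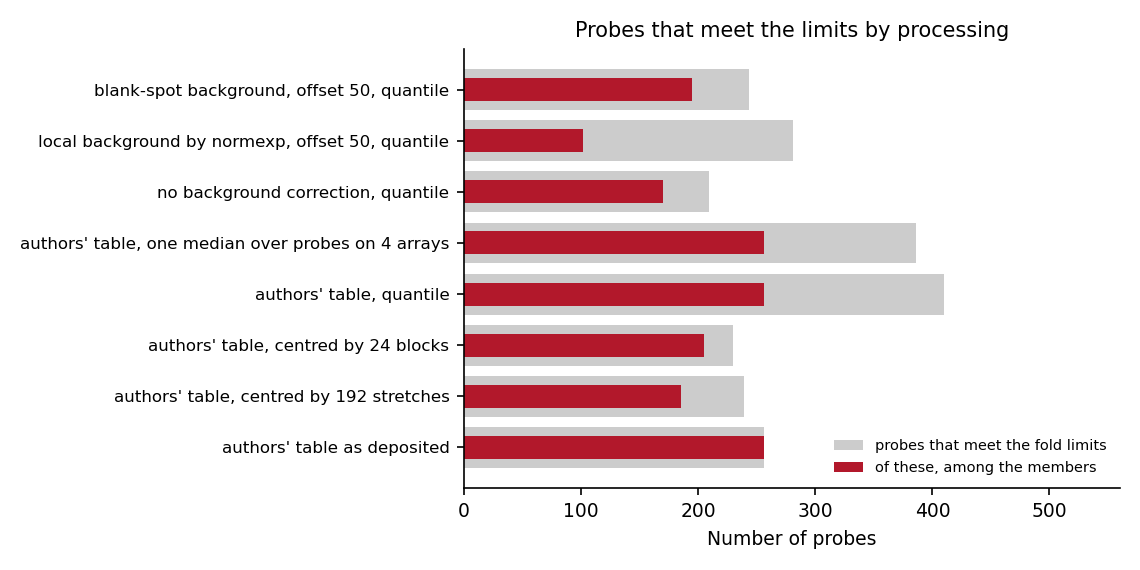
Number of genes that meet the 2-fold and 1.5-fold limits under 8 ways of processing (grey bars) and the number of these that are among the 256 selected genes (red bars). The overlap is lowest, at 102, with the local background, and complete with both other scalings of the deposited table.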

How the data were processed

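Per the labels' protocols, RNA was amplified as amino allyl RNA, coupled to Cy5 and fragmented by the Toray procedure. Per the file headers, the scanner read 1 channel at 3 gains. The deposited scanner output gives the median intensity of each spot and of its surroundings, unscaled. A normalized intensity per gene is what the authors deposited as their table. Each of its columns was a straight line of the scanner signal (largest residual 5.3e-06) that reached 0 at the mean of the blank spots after 5% at each end were left out, with a median of 25; these steps were found from the values.

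From the table, log2 ratios were taken with no offset. The selected genes and all gene lists were chosen with earlier results of these data known. The 23 gene lists, marker lists included, could not be applied, since 0 of 20174 identifiers matched a symbol. Printed genes came from the 20 with the highest score, the 10 brightest, and the highest and lowest in both differences with the array with zinc alone, 2 of each. With 1 array per condition, no difference was tested. Alternatives used the blank spots, normexp in limma 3.58.1 (R 4.3.3), no correction, 2 scalings and other limits; scanner alternatives kept the level limit on the table's values. Centring by block and leaving out blocks 1 and 2 were added after the data were seen. The code that applies the rule was tested on simulated data, which bears on the code and not on the selected genes. The number of arrays limits the precision. Python 3.11.15 was used.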

Additional observations from a re-analysis of the deposited data

Results flagged for a closer look

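For 123 of the 256 selected genes, the difference by IPTG had opposite signs, higher with IPTG in the pair with zinc and lower with IPTG in the pair without it. For 240 of the 256, the difference by zinc had opposite signs, higher with zinc in cells with IPTG and lower with zinc in cells without IPTG. In both cases each condition had 1 array, the rule had fixed 1 of the 2 signs, and the difference between the pairs was not tested. Over all 5462 genes at 50 or more, 86.5% were lower with zinc alone than without additions and 69.4% were higher with IPTG and zinc than with zinc alone.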

How the results depend on the processing

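With 1 array per condition, no array could be left out, and no paired analysis was possible because each condition has a single array without a replicate number. "Moved" below means by more than the spread of repeat control spots, or more than 1.5 times for a count. The number of genes meeting the rule moved with one median over 4 arrays (386), quantile normalization of the table (410), a limit of 3-fold in place of 2-fold (133), of 2-fold in place of 1.5-fold (167) and a level of 100 (165). It was 356 with 1.5-fold for the first limit, 358 with a level of 25, and 209 with no background correction. The median log2 difference between IPTG alone and no addition was -1.21 with the local background and -1.31 with no correction, and that between IPTG with zinc and IPTG alone was 0.72 and 0.93. The median difference between IPTG with zinc and zinc alone was -0.33 with the local background and -0.34 with quantile normalization of the table. Genes at least 1.5-fold apart by zinc without IPTG numbered 38 in the table and 49 with the local background. They numbered 3 with the blank spots, with no correction and with 24 centred blocks, and 15 with each other scaling. With 8 centred stretches per block or outside blocks 1 and 2 they numbered 5. Genes at least 2-fold lower with IPTG in the pair with zinc numbered 27 to 47 throughout. Of the 40 genes named by the rule, 32 and 37 moved in their difference between IPTG alone and no addition with the blank-spot and the local background. With the local background, 7 of 40 genes named by the rule changed the sign of their difference between IPTG with zinc and IPTG alone, to -0.059, -0.088, -0.12, -0.93, -0.056, -0.15 and -0.023. The causes of these changes were not tested.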
